A study of Mus musculus with 16 samples.

Results

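Methionine, cysteine and taurine metabolism was followed through 8 genes, Mat1a, Bhmt, Gnmt, Ahcy, Cbs, Cth, Cdo1 and Csad, in liver and quadriceps muscle of female mice. They are known enzymes of these pathways and were chosen with earlier results of these data known. Every probe set that names one of them alone was read on the array. All 8 genes, of 12393 named on the array, had such a probe set, 9 probe sets in all, since Cbs has 2. The arrays were Affymetrix Mouse430A_2 arrays, which measure messenger RNA with short probes near the 3' end of each transcript. There were 4 groups of 4 arrays: liver of KLF15-null mice, liver of WT mice, quadriceps of KLF15-null mice and quadriceps of WT mice. Every animal was female, 4 to 5 months old and had been fasted for 18 h, so fasting is common to all groups. The labels do not give the strain, the construction of the null allele or the cells it is lost from, and they number the samples (KO5 to KO8 and WT1 to WT4 in each tissue) without saying that each is a separate mouse. The p-values therefore measure the spread between these samples. Klf15 encodes a Kruppel-like factor, a DNA-binding zinc finger protein known for its role in amino acid and glucose metabolism during fasting.

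Methionine is activated to S-adenosylmethionine by the product of Mat1a, the liver form of methionine adenosyltransferase. Methyl transfer, in liver largely by the glycine methyltransferase Gnmt, leaves S-adenosylhomocysteine, which Ahcy splits into homocysteine and adenosine. Homocysteine is either methylated back to methionine with betaine by Bhmt or passed through Cbs and Cth to cysteine, the route called transsulfuration. Cysteine is oxidised by Cdo1 to cysteine sulfinate, from which Csad makes hypotaurine, the precursor of taurine. Liver is the main site of the methionine cycle and of transsulfuration, and taurine is abundant in muscle.

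Promoter windows from RefSeq (build GRCm38.p6, 250 bases before to 50 bases after a transcript start) were read for 5 of the 8 genes. These were Ahcy, Bhmt, Cbs, Csad and Gnmt, of which Csad has 2 windows. Member windows on 1 chromosome were left out, and those of Mat1a, Cth and Cdo1 were not read here. They were searched on both strands for CACCC (reverse complement GGGTG) and CCGCCC (reverse complement GGGCGG), the short boxes that Kruppel-like factors are known to bind. The windows of Ahcy, Gnmt and Cbs are shown because they hold different numbers of these letters, with matches in capitals. Ahcy lies at chr2:155074448-155074747, Gnmt at chr17:46729116-46729415 and Cbs at chr17:31637156-31637455, all on the minus strand and written 5′ to 3′ in the direction of the gene.
Ahcy: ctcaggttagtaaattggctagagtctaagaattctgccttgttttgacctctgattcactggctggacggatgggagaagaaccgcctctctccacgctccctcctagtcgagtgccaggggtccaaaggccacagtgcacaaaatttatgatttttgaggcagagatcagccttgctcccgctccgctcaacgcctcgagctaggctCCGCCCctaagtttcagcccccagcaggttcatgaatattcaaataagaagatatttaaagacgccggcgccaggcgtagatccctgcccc
Gnmt: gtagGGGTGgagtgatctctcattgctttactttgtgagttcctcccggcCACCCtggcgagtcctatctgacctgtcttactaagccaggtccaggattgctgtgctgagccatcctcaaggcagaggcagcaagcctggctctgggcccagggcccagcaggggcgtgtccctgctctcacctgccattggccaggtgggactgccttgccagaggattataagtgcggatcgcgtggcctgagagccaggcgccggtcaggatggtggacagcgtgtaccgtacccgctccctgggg
Cbs: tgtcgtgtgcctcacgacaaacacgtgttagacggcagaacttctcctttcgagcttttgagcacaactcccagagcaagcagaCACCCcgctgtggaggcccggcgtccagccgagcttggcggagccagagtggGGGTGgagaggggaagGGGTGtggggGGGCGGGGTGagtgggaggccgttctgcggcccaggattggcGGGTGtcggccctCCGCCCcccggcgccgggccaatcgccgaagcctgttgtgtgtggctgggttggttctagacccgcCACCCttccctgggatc
The Ahcy window has 0 CACCC and 1 CCGCCC matches, the Gnmt window 2 and 0, and the Cbs window 6 and 2, with 1 pair that overlaps. Of 32851 promoter windows of 300 bases, 57.5% hold CACCC and 35.7% hold CCGCCC on either strand. A match is only a description of the letters.

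Signals are linear intensity values, as deposited in liver and after scaling each array to a common median in quadriceps. Median signals lay between 41.6 and 48.9 on the liver arrays and between 15.6 and 59.2 on the quadriceps arrays. KLF15-null quadriceps 8 stood apart, with the median of 15.6 and a ratio of 3' to 5' Gapdh signal, which reads RNA quality, of 1.09. That ratio was 0.785 to 0.790 on KLF15-null quadriceps 5, 6 and 7 and 0.855 to 0.937 on the WT quadriceps arrays. Without KLF15-null 8 the genotypes thus did not overlap in it. KLF15-null quadriceps 8 was also scanned on a day of its own, after the others. Genotype tests of the 8 genes in quadriceps, and of some other genes, are given with and without it. Fluidics station 1 washed the KLF15-null arrays of both tissues and station 2 the WT arrays, so effects of station and of genotype cannot be told apart. The 4 modules of a station wash 1 array each, and each module number held 1 KLF15-null and 1 WT array per tissue. Differences are given on the log2(signal + 16) scale with their standard error (SE), which understates the change of dim genes, and were tested with limma with Benjamini-Hochberg adjustment over all genes of a comparison at a threshold of 0.05. Group values are mean ± SD (n = 4 arrays).

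Klf15 signal was 200.4, 155.0, 148.8 and 157.7 on the KLF15-null liver arrays 5 to 8, against 1016, 1221, 1279.5 and 855.0 on the WT liver arrays 1 to 4. The genotypes did not overlap in liver, and in quadriceps the signals were 15.6 to 89.3 on KLF15-null arrays and 514.5 to 715 on WT arrays. The summed signal of 6 hepatocyte markers on the array was 46201 to 50236 in KLF15-null liver and 48376 to 51382 in WT liver, and in quadriceps it was 60.5 to 92.4 in KLF15-null and 69.3 to 124 in WT. None of these 6 genes passed the threshold in liver, and the 8 myofibre markers summed to at least 61607 in every quadriceps sample and to at most 133 in every liver sample. Of the macrophage and endothelial markers 1 of 7 and 1 of 5 passed in liver, where 807 of all 7989 genes did, and none in quadriceps. All 7 macrophage markers had the higher mean in KLF15-null liver, with sums of 3452 to 5658, against 2951 to 4202 in WT liver. The endothelial sums were 544 to 652 in KLF15-null liver and 452 to 551 in WT liver. The 1 erythroid marker tested in each tissue did not pass, while the cholangiocyte markers were below the filter in both.

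All 8 genes were liver genes in both genotypes. In KLF15-null mice the liver signal was at least 250-fold the quadriceps signal for Mat1a, 393-fold for Bhmt and 267-fold for Gnmt, and the corresponding bounds in WT mice were 277-fold, 408-fold and 302-fold. These are lower bounds because the quadriceps means of the 3 genes, 6.88 to 21.1, lay below 22.6, the filter signal of the quadriceps test, and that signal was put in their place. Liver exceeded quadriceps by at least 76.1-fold for Cbs in KLF15-null mice and 66.6-fold in WT mice. Cdo1, which commits cysteine to oxidation, was 72.9-fold higher in liver than in quadriceps of KLF15-null mice and 76.4-fold higher in WT mice. Ahcy, which every cell that methylates needs, was 20.4-fold higher in liver in KLF15-null mice and 21.8-fold higher in WT mice. Cth was at least 119-fold higher in liver of KLF15-null mice and 83.2-fold higher in liver of WT mice. Csad had the smallest ratio in WT mice, 11.5-fold, with 31.6-fold in KLF15-null mice. All 8 genes passed the threshold as higher in liver in both genotypes, where 38.9% of 8966 genes did so in KLF15-null mice and 33.6% in WT mice. The filter took the mean of a tissue over both genotypes, and Mat1a, Bhmt, Gnmt, Cbs and Cth entered this fit through their liver signal alone. A difference was thus built into their tests, and only their folds or bounds are given. Of the genes that passed the quadriceps filter, the log2 difference in KLF15-null mice was 4.33 for Ahcy, 5.85 for Cdo1 and 4.28 for Csad. In WT mice it was 4.37 for Ahcy, 5.96 for Cdo1 and 2.88 for Csad, with limma adjusted p of at most 7.38e-08 in both genotypes. The tissues were hybridised in separate runs on separate chip lots, and no scan day held arrays of both, so tissue and run cannot be told apart.

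**Figure D1:**
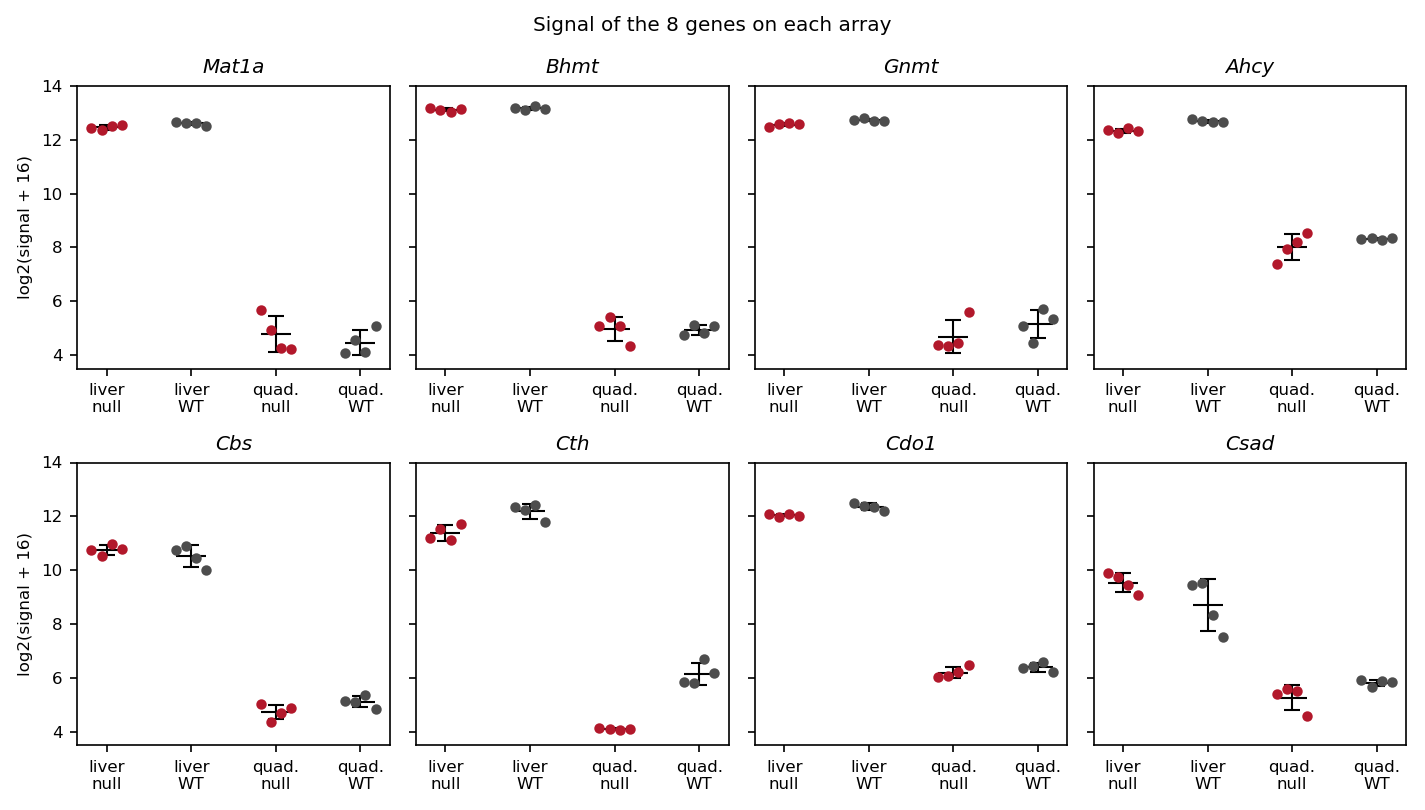
Signal of each gene on each array, as log2(signal + 16), in the 4 groups (points, 1 per array; bars, mean ± SD of the 4 log2 values; null, KLF15-null; quad., quadriceps; Cbs by its first probe set). The liver arrays lie above the quadriceps arrays for all 8 genes, and the KLF15-null liver arrays of Gnmt, Ahcy, Cth and Cdo1 lie below all WT liver arrays.

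In KLF15-null liver, 3 of the 8 genes fell and none rose. These were Cth, which releases cysteine from cystathionine and had 0.571 of the WT mean, Ahcy, with 0.784 of it, and Cdo1, with 0.80 of it. Among all 7989 genes tested in liver, 5.24% were lower in KLF15-null mice and 4.86% were higher. Since the 8 genes were chosen with earlier results known, these shares serve as a description only. Gnmt, Ahcy, Cth and Cdo1 had every KLF15-null array below every WT array, as did 7.50% of all genes. The median log2 difference of the 8 genes was -0.16, beside 0.03 over all genes tested.

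Taking the methionine cycle first, Mat1a gave signals of 5525, 5213, 5856 and 5971.5 on the KLF15-null liver arrays 5 to 8, against 6502.5, 6367, 6237 and 5887 on the WT arrays 1 to 4. KLF15-null 8 lay above WT 4, so the groups overlapped. The log2 difference was -0.15 (SE 0.06, limma adjusted p = 0.163), and the means were 5641 ± 342 in KLF15-null and 6248 ± 264 in WT.

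Bhmt, which uses betaine to return homocysteine to methionine, gave 9261, 8709, 8476 and 9071 on KLF15-null arrays, against 9249, 8864, 9713.5 and 9035.5 on WT arrays. The 2 groups interleaved, with means of 8879 ± 353 in KLF15-null and 9215 ± 367 in WT. Their log2 difference of -0.05 (SE 0.05, limma adjusted p = 0.600) did not pass, and it was 0.0049 with quantile normalization.

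Gnmt, the enzyme that uses up excess S-adenosylmethionine, gave 5713, 6077, 6242 and 6085 on KLF15-null arrays, against 6813, 7141, 6672 and 6661 on WT arrays. Every KLF15-null array was below every WT array, by a small margin relative to the signal. The log2 difference was -0.18 (SE 0.05), with means of 6029 ± 224 in KLF15-null and 6822 ± 224 in WT. It missed the threshold (limma adjusted p = 0.0581), and it passed among the fewer genes of a filter at the 60th percentile (limma adjusted p = 0.0384).

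Ahcy, the step after Gnmt, gave 5222, 4886.5, 5518 and 5124.5 on KLF15-null arrays, against 6966, 6609.7, 6489.8 and 6419 on WT arrays. The highest KLF15-null array was well below the lowest WT array. Ahcy averaged 5188 ± 261 in KLF15-null liver and 6621 ± 243 in WT liver, a log2 difference of -0.35 (SE 0.06, limma adjusted p = 0.00190). It was lower in all 4 fluidics modules, by -0.41, -0.43, -0.23 and -0.32 on the log2 scale in modules 1 to 4.

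At the entry of transsulfuration, the first Cbs probe set gave 1702, 1443, 1976 and 1746 on KLF15-null arrays, against 1723, 1894, 1382 and 1009.6 on WT arrays. The WT arrays spanned the wider range and the groups overlapped. The log2 difference was 0.22 (SE 0.17, limma adjusted p = 0.474), with means of 1717 ± 218 in KLF15-null and 1502 ± 391 in WT. Without WT 4 it was 0.05. The other Cbs probe set gave 984, 812, 1174 and 923 on KLF15-null arrays, against 828, 997.5, 776 and 480.5 on WT arrays, and as its own feature had a log2 difference of 0.36 (limma adjusted p = 0.269). Both probe sets thus had the higher mean in KLF15-null liver and neither passed.

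Cth, the second transsulfuration enzyme, gave 2302.5, 2913, 2183 and 3353 on KLF15-null arrays, against 5138, 4779.7, 5397 and 3531 on WT arrays. The groups did not overlap, but KLF15-null 8 and WT 4, the arrays of module 4, came close to each other. Cth averaged 2688 ± 547 in KLF15-null liver and 4711 ± 827 in WT liver, a log2 difference of -0.81 (SE 0.15, limma adjusted p = 0.00366), the largest of the 3 falls. Within modules 1 to 4 it was -1.15, -0.71, -1.30 and -0.07.

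Cdo1, the cysteine dioxygenase, gave 4287, 4051.9, 4311 and 4137 on KLF15-null arrays, against 5815, 5314, 5208.5 and 4635 on WT arrays. The KLF15-null arrays were close together and all below the WT arrays, which were spread more widely. Means were 4197 ± 123 in KLF15-null and 5243 ± 484 in WT, with a log2 difference of -0.32 (SE 0.07, limma adjusted p = 0.0131). It was lower in all 4 modules, by -0.44, -0.39, -0.27 and -0.16 on the log2 scale.

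Csad, which decarboxylates cysteine sulfinate on the way to taurine, gave 929.9, 843.5, 677 and 529 on KLF15-null arrays, against 674, 717, 306 and 165 on WT arrays. The groups overlapped, with WT 3 and WT 4 far below WT 1 and WT 2. Means were 745 ± 178 in KLF15-null and 466 ± 272 in WT, and the log2 difference of 0.85 (SE 0.36) did not pass (limma adjusted p = 0.176). In both genotypes the arrays of modules 3 and 4 were the low ones, and within modules 1 to 4 the log2 difference was 0.45, 0.23, 1.11 and 1.59, higher in KLF15-null in all 4. With the module as a block Csad passed the threshold (SE 0.20, limma adjusted p = 0.0340). Without WT 4 and with no block the difference was 0.45 (limma adjusted p = 0.383).

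**Figure D2:**
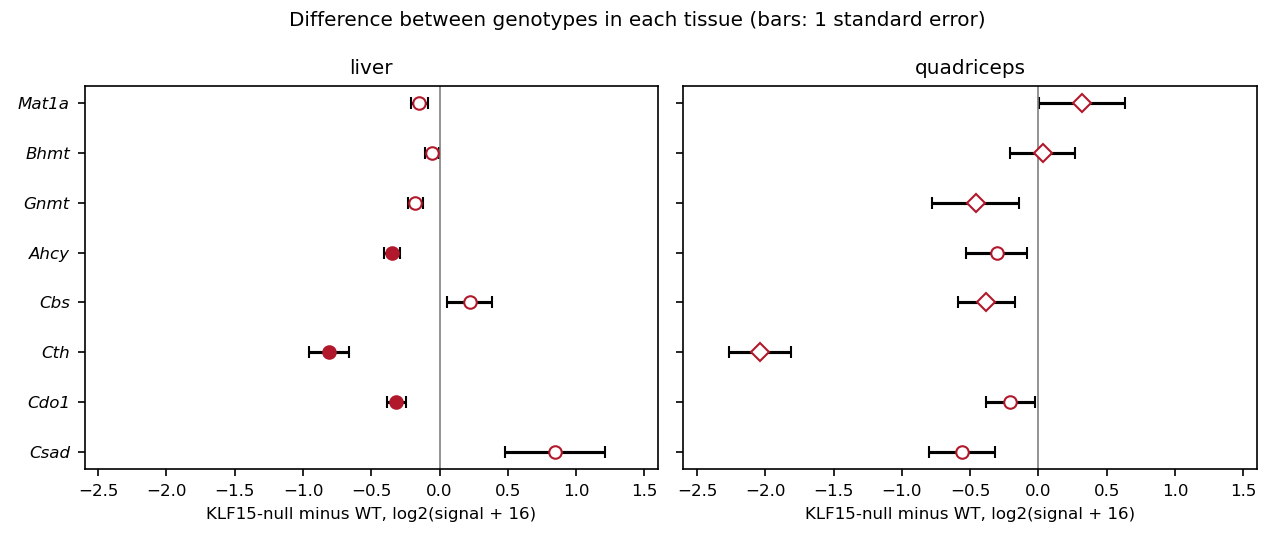
Log2 difference, KLF15-null minus WT, of each gene in liver and in quadriceps (bars, 1 SE). Filled circles passed the threshold, open circles were tested and did not pass, and open diamonds lay below the filter, with values from the fit with no filter. In liver Cth, Ahcy and Cdo1 are filled on the lower side, and in quadriceps Cth lies at -2.04, a value that passed in the fit with no filter.

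With the module as a block in liver, Ahcy (limma adjusted p = 0.00716), Cth (0.0227) and Cdo1 (0.0178) also passed. With all 16 arrays in 1 fit, which estimates 1 spread over both tissues, Cth still passed and Ahcy (limma adjusted p = 0.453) and Cdo1 (0.310) did not. WT 4 was the lowest WT liver array for 7 of the 8 genes, Bhmt being the other, and it was the lowest for 43.5% of all genes tested.

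**Figure D3:**
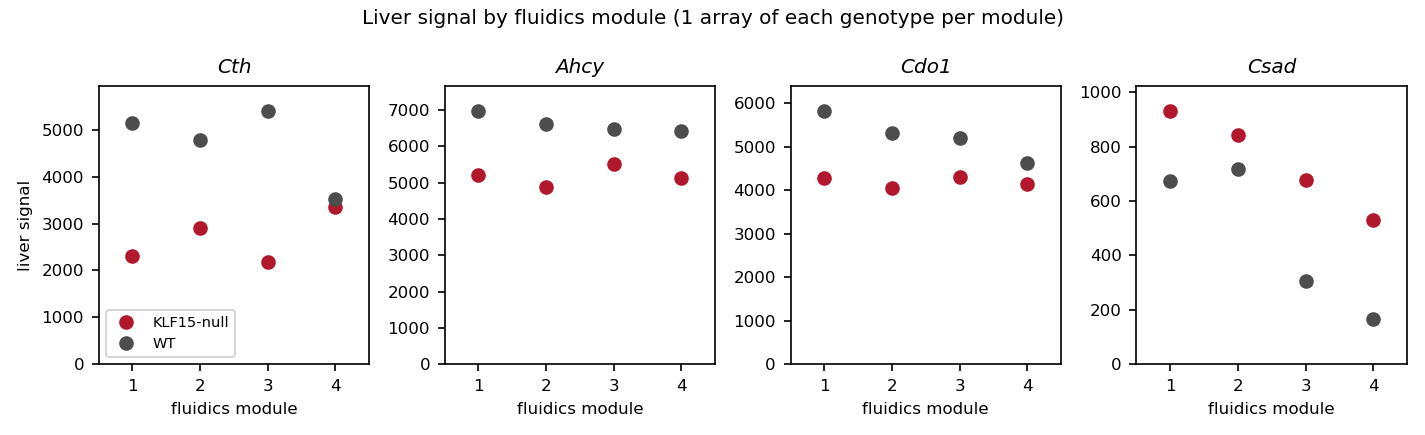
Liver signal of Cth, Ahcy, Cdo1 and Csad by fluidics module, with 1 KLF15-null and 1 WT array in each module and the signal axis starting at 0. The KLF15-null point is below the WT point in every module for Cth, Ahcy and Cdo1 and above it in every module for Csad, and the 2 Cth points nearly meet in module 4.

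The falls in liver were read at high signal. The WT liver mean was at least 4000 for 6 of the 8 genes, all but Cbs and Csad. Of the 168 genes tested in liver with such a mean, a limit chosen after the values were seen, 31 fell and 2 rose, so 18.5% were lower in KLF15-null liver, with a median log2 difference of -0.06. The highest signal on a liver array was 11476 to 12748, and the part that the upper end of the scale has in these differences was not tested.

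In quadriceps most of the set was dim, and only Ahcy, Cdo1 and Csad passed the filter on low values, which took genes with a mean log2(signal + 16) at or above the 40th percentile. None of the 3 passed the threshold in limma, where 0.976% of 7991 genes passed. The unadjusted limma p was 0.0323 for Csad, 0.185 for Ahcy and 0.269 for Cdo1. The share of all genes at such levels was not counted. The median log2 difference of all quadriceps genes was -0.18 after median scaling, -0.06 after quantile normalization, -0.48 with no scaling and -0.28 without KLF15-null 8, and the members' values are read against that shift.

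Ahcy in quadriceps had a scaled signal of 150, 229, 279 and 356 on KLF15-null arrays 5 to 8, against 299, 312, 296 and 309.6 on WT arrays 1 to 4. The KLF15-null arrays lay on both sides of the tightly grouped WT arrays. The log2 difference was -0.31 (SE 0.22, limma adjusted p = 0.480), with means of 254 ± 86.4 in KLF15-null and 304 ± 7.95 in WT. Without KLF15-null 8 it was -0.48 (limma adjusted p = 0.0709).

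Cdo1 had 49.0, 51.1, 57.4 and 72.8 on KLF15-null arrays, against 65.8, 70.5, 80.7 and 57.5 on WT arrays, which overlapped through KLF15-null 8. Its log2 difference was -0.21 (SE 0.18, limma adjusted p = 0.568), close to the shift of all genes. Without KLF15-null 8 it was -0.30 (limma adjusted p = 0.205), beside a shift of -0.28.

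Csad had 26.0, 31.4, 29.3 and 7.72 on KLF15-null arrays, against 44.3, 34.5, 42.4 and 41.2 on WT arrays. Every KLF15-null array was below every WT array, as for 7.48% of all quadriceps genes, with KLF15-null 8 by far the lowest. The log2 difference was -0.56 (SE 0.24, limma adjusted p = 0.273), and -0.34 (limma adjusted p = 0.208) without KLF15-null 8. Cdo1 and Csad are also made in adipocytes. The summed signal of 5 adipocyte markers was 2958 to 7826 in KLF15-null quadriceps and 4508 to 6795 in WT quadriceps, with Adipoq at 387 ± 293 in KLF15-null and 745 ± 215 in WT. Adipoq was 192 to 344 on KLF15-null 5, 6 and 7 and 813 on KLF15-null 8, against 524 to 984 on the WT arrays. The other 4 markers also had the lower mean in KLF15-null quadriceps: Fabp4, which makes up most of the sum, with 4178 in KLF15-null and 4919 in WT, Lep with 24.4 in KLF15-null and 47.4 in WT, Retn with 71.8 in KLF15-null and 99.7 in WT, and Cidec with 44.1 in KLF15-null and 71.7 in WT. None of the 5 passed the threshold, and their part in the Cdo1 and Csad values was not tested.

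Cth was below the filter in quadriceps, which was applied to the mean of log2(signal + 16) over the 8 arrays, since its KLF15-null arrays were at the bottom of the signal range. Its scaled signal was 1.56, 1.24, 0.57 and 1.03 on KLF15-null arrays 5 to 8, against 41.5, 40.2, 88.8 and 56.0 on WT arrays 1 to 4. On the KLF15-null arrays Cth was at or above only 1.16% to 3.48% of all probe sets, and on the WT arrays at or above 50.1% to 64.1% of them. With no filter, Cth fell by 2.04 on the log2 scale (SE 0.23, limma adjusted p = 0.000423), and 0.363% of the 12393 genes of that fit were lower. With the filter signal in place of the KLF15-null mean of 1.1 ± 0.42, Cth was at least 2.51-fold lower in KLF15-null quadriceps, against a WT mean of 56.6 ± 22.6. The signal was as low on the other KLF15-null arrays as on KLF15-null 8, and without that array the log2 difference was -2.10 (limma adjusted p = 0.00101).

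The remaining members were at similarly low signals in both genotypes in quadriceps and were read only with no filter. Mat1a averaged 13.9 ± 15.1 in KLF15-null and 6.88 ± 7.74 in WT, Bhmt 16.6 ± 9.11 in KLF15-null and 15 ± 4.03 in WT, Gnmt 11.7 ± 13.7 in KLF15-null and 21.1 ± 12.8 in WT, and Cbs 10.9 ± 4.95 in KLF15-null and 18.8 ± 4.95 in WT. All 8 of these means were below the filter signal and none of the 4 genes passed (limma adjusted p of 0.457 to 0.967). Without KLF15-null 8 and with no filter none of the 4 passed either (limma adjusted p of 0.0888 for Gnmt to 0.508 for Bhmt). No fold is given for them.

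The difference between the tissues in the genotype effect was tested as the KLF15-null minus WT difference in liver minus that in quadriceps. Cth was the 1 gene of the 8 to pass, with 1.23 on the log2 scale (SE 0.27, limma adjusted p = 0.0174), where 1.92% of 8966 genes passed and the median of all genes was 0.18. Cth was lower in KLF15-null mice in both tissues, and on this scale by more in quadriceps, where its WT signal was dim and its KLF15-null signal was below the filter. The value depends on the constant added before the logarithm, being 3.92 with a pseudocount of 1 and 0.07 (limma adjusted p = 0.886) with 64. Csad had opposite directions in the 2 tissues, with an interaction of 1.41 (SE 0.46) that did not pass (limma adjusted p = 0.108). Cbs had 0.60 (SE 0.26, limma adjusted p = 0.234), and Mat1a, Bhmt, Gnmt, Ahcy and Cdo1 had values between -0.47 and 0.28, none passing.

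Other genes of these pathways were read from 3 lists of 39 genes, also chosen with earlier results of these data known. Of these 32 were on the array and 31 were tested in liver. There 6 were lower and 2 higher in KLF15-null mice, beside 5.24% and 4.86% of all genes tested in liver, a description only. The median log2 difference of all those genes, 0.03, stands beside the medians of the lists. In the list of methionine cycle and methyl transfer genes, 12 were tested, 3 fell and 1 rose, with a median log2 difference of 0.11. The 3 falls were in genes that supply or use methyl groups beside the cycle. Sardh, which oxidises the sarcosine that Gnmt makes, was at 331 ± 64.4 in KLF15-null liver and 1748 ± 170 in WT liver. Aldh7a1, whose product makes betaine from betaine aldehyde and also takes part in lysine breakdown, was at 827 ± 22.1 in KLF15-null and 2557 ± 227 in WT (log2 difference -1.61, limma adjusted p = 9.25e-08). Gamt, which uses S-adenosylmethionine to make creatine, was at 414 ± 83.6 in KLF15-null and 666 ± 98.9 in WT (-0.67, limma adjusted p = 0.0102). The rise was in Mat2b, the regulatory subunit of the methionine adenosyltransferase found in most tissues, at 370.4 ± 39.8 in KLF15-null and 249 ± 14.4 in WT (0.54, limma adjusted p = 0.00509). Of the members that did not pass, Pemt, which makes phosphatidylcholine with S-adenosylmethionine, had 0.28 and Dmgdh, the dimethylglycine dehydrogenase, had -0.32.

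In the list of cysteine, taurine, sulfide and glutathione genes, 12 were tested in liver, 3 fell and 1 rose, with a median log2 difference of -0.12. Suox, the sulfite oxidase, was at 580 ± 88.5 in KLF15-null liver and 1048 ± 189 in WT liver (-0.83, limma adjusted p = 0.00177). Gclm, the modifier subunit of the enzyme that starts glutathione synthesis from cysteine, was at 801 ± 51.9 in KLF15-null and 1179 ± 56.5 in WT (-0.55, limma adjusted p = 0.000962). Its catalytic partner Gclc had the opposite sign, 2400 ± 218 in KLF15-null and 1828 ± 416 in WT, and did not pass (0.41, limma adjusted p = 0.0661). Tst, a sulfurtransferase that detoxifies cyanide, was at 1107 ± 95.8 in KLF15-null and 1501 ± 159 in WT (-0.43, limma adjusted p = 0.0126). The rise was in Got1, the cytosolic aspartate aminotransferase that also accepts cysteine sulfinate, with a log2 difference of 0.64. Mpst, another sulfurtransferase, had -0.28 and did not pass. Of the 7 tested genes of methionine salvage and polyamine synthesis none passed in liver in limma, the median was 0.09, and Odc1, the ornithine decarboxylase, had 0.44 (limma adjusted p = 0.0821). Enoph1, an enzyme of the salvage route, had -0.27.

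**Figure D4:**
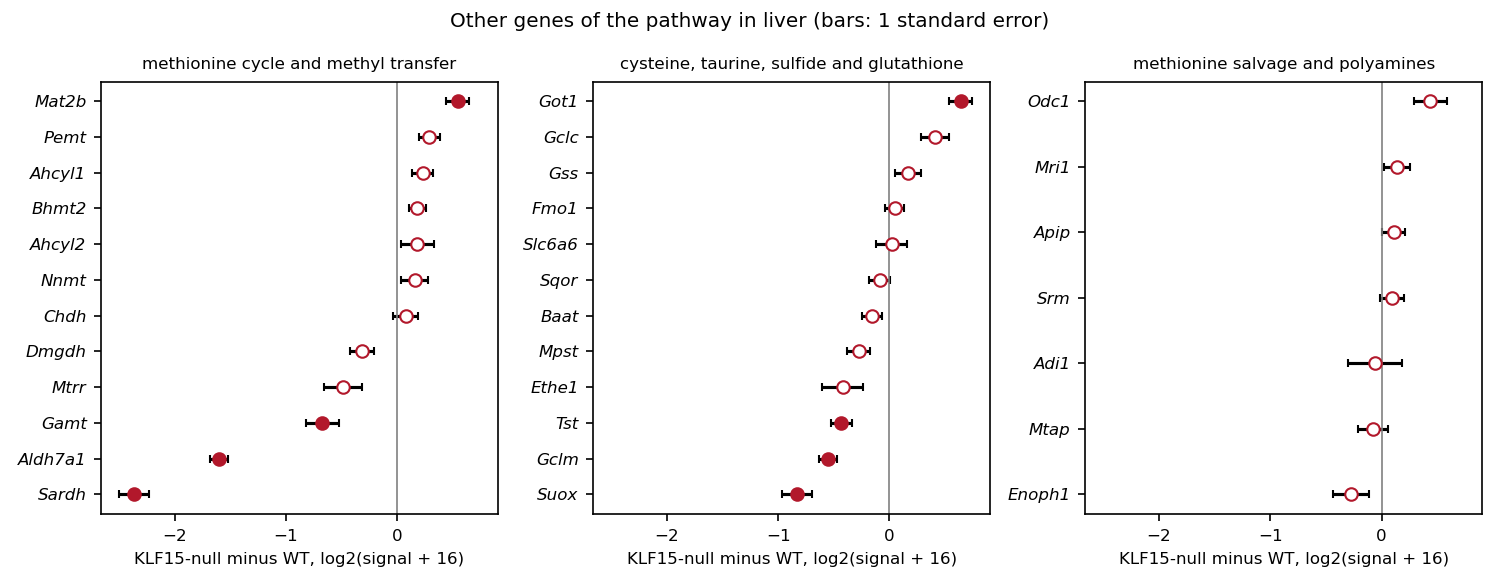
Log2 difference, KLF15-null minus WT, in liver for the tested genes of the 3 lists (bars, 1 SE; filled circles passed the threshold, open circles did not). Sardh and Aldh7a1 lie farthest to the lower side, and the genes of methionine salvage and polyamines all lie between -0.27 and 0.44.

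In quadriceps 25 genes of the 3 lists were tested, of which 2 fell and none rose, where 0.976% of all quadriceps genes passed in either direction. Aldh7a1 had 120, 191, 149 and 223 on KLF15-null arrays 5 to 8, against 387, 375, 333 and 331.5 on WT arrays 1 to 4, a log2 difference of -1.03 (limma adjusted p = 0.0160). Tst had 61.1, 63.7, 65.1 and 65.9 on KLF15-null arrays, against 143, 149, 102 and 120 on WT arrays, a log2 difference of -0.84 (limma adjusted p = 0.0184). The genotypes did not overlap for either gene, as for 7.48% of all quadriceps genes in that direction. Both genes also passed as lower in KLF15-null liver. Aldh7a1 passed in 18 of 21 other settings, losing its call without WT 1, WT 2 or WT 3 (limma adjusted p of 0.0602 to 0.0806). Tst passed in 15 of 21, losing its call without WT 1, WT 2 or WT 4 (limma adjusted p of 0.0529 to 0.114), with no filter (0.0712), with no variance trend (0.0572) and with no scaling (0.0848).

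The taurine transporter gene Slc6a6 had 222, 214, 171 and 67.2 on KLF15-null quadriceps arrays 5 to 8, against 78.3, 115, 80.3 and 61.6 on WT arrays 1 to 4. KLF15-null 5, 6 and 7 lay above all WT arrays and KLF15-null 8 lay among them. The log2 difference over all arrays was 0.80 (SE 0.28) and did not pass (limma adjusted p = 0.193), and without KLF15-null 8 it was 1.16 (limma adjusted p = 0.00196). Slc6a6 also passed with the fluidics module as a block (limma adjusted p = 0.0328), and in liver its log2 difference was 0.02. Without KLF15-null 8 the salvage genes Enoph1, at -0.81 (limma adjusted p = 0.00550), and Mtap, at -0.72 (0.0210), passed too, where over all arrays Enoph1 had -0.70 (0.0685) and Mtap -0.59 (0.206). So did Ahcyl2, a relative of Ahcy, at -0.66 (limma adjusted p = 0.0153), and Sqor, the sulfide oxidising enzyme, at -0.66 (0.0168). The median log2 difference of all genes without KLF15-null 8 was -0.28. With quantile normalization and without KLF15-null 8, Slc6a6 at 1.39 (limma adjusted p = 0.00364) and Enoph1 at -0.70 (0.0137) still passed. Mtap at -0.50 (limma adjusted p = 0.0931), Ahcyl2 at -0.43 (0.0879) and Sqor at -0.31 (0.141) then did not. Mtrr, which reactivates methionine synthase, had -0.42 over all arrays and did not pass. The number of genes passing in quadriceps itself was 78 of 7991 with all arrays and 1781 without KLF15-null 8. It was 658 without KLF15-null 8 and with quantile normalization. Of the 31 genes of the lists in the interaction fit, only Sardh passed, with -2.73 (limma adjusted p = 3.15e-05). In quadriceps Sardh averaged 14.1 in KLF15-null and 6.67 in WT, both below the filter signal, and its genotype difference was not tested there. Sardh entered the interaction fit through its liver signal, and its log2 difference in liver was -2.36. A fall could not be read at such dim quadriceps signals, so a difference between the tissues in the Sardh genotype effect is not settled.

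For each of the 8 genes the most similar pattern over the 16 arrays was looked for among 8965 other genes, by the root mean square difference of log2 values centred on each gene's mean. The nearest gene was Cyp2d10 for Mat1a (0.26), Cyp2d26 for Bhmt (0.21), Apoc3 for Gnmt (0.31) and Abhd3 for Ahcy (0.16). It was Spp2 for Cbs (0.24), Reep6 for Cth (0.42), Dpyd for Cdo1 (0.18) and Dnase2a for Csad (0.37). The 8 nearest genes are all different, and every member is high in liver, so the step between the tissues enters each distance.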

How the data were processed

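RNA of liver and quadriceps was measured on 16 arrays. The deposited values are a linear intensity for each probe set, which the authors obtained with the Affymetrix program GCOS according to the submitters' processing notes. The version, summary method and scaling of that program are not given in the labels or files used here. Other values, the fluidics station, module and scan day, come from the experiment record deposited with each array, per the file headers. Of 22690 probe sets, 64 were controls, 20380 had 1 gene symbol, 691 several and 1555 none in the platform annotation. Names were checked in RefSeq GRCm38.p6, which held 12369 of the 12393 genes.

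Liver signals were used as deposited. Quadriceps arrays were scaled to 1 median (factors 0.678 to 2.57), since medians within that tissue differed by more than 1.5 times. A pseudocount of 16 was added before log2. A gene was its probe set with the highest mean, and genes with a mean log2 value at or above the 40th percentile (signal 24.0 in liver, 22.6 in quadriceps) were tested with limma 3.58.1 in R 4.3.3 (lmFit, eBayes with a variance trend), within a tissue for genotype and over all 16 arrays for the tissue and interaction terms. The fits were tested on simulated data. Figures were drawn with matplotlib 3.10.9. The number of arrays limits the precision.

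The 8 genes, the pathway lists and the marker lists were chosen with earlier results of these data known. Genes named are the 8, Klf15, list members past the threshold, up to 2 others of each list with the smallest p, and the nearest pattern of each of the 8. Gapdh and the adipocyte markers are named outside that rule. Replicate numbers were not used to pair the samples in the main fits, since whether 1 number is 1 mouse in both tissues is not known. Alternatives were pseudocounts of 1 and 64, no filter and a 60th percentile filter, quantile normalization, no scaling, no variance trend, other probe set rules, all 16 arrays in 1 fit, the module or replicate number as a block and leaving out each array. Some list genes, among them Mat2a, Mtr, Ado, Gadl1, Amd1 and Sms, were not analysed here.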

Additional observations from a re-analysis of the deposited data

Results flagged for a closer look

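For Cth, the test of a difference between the tissues passed: the KLF15-null minus WT difference in liver minus that in quadriceps was 1.23 on the log2 scale (limma adjusted p = 0.0174), and 0.07 (limma adjusted p = 0.886) with a pseudocount of 64. The quadriceps side rests on KLF15-null signals of 0.57 to 1.56, far below the filter signal of 22.6. Neither a difference between the tissues in the Cth genotype effect nor its size is therefore settled.

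Gnmt in quadriceps KLF15-null 8 had a scaled signal of 32.2, far from 3.95, 4.82 and 5.84 on the other KLF15-null arrays. Those 3 arrays lie below the filter signal of 22.6, and the WT arrays had 5.99 to 36.7. Of 36 groups of arrays tested for such a gap this was the only one found, and chance alone gives about 1 in 20 groups.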

How the results depend on the processing

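In liver, 807 genes and 3 members passed. With all 16 arrays in 1 fit these were 328 genes and 1 member, Cth. Leaving out 1 array at a time gave 577 to 754 genes and always 3 members. Over 18 other settings Cth passed in 18, Ahcy in 17 and Cdo1 in 16 (Cdo1 limma adjusted p = 0.0774 with no variance trend). In quadriceps the count of 78 genes became 46 with no filter, 42 with no variance trend, 132 with no scaling, 323 with all 16 arrays in 1 fit, 153 with the module as a block, 658 with quantile normalization and without KLF15-null 8, and 1286 with no filter and without it, an alternative chosen after seeing the data. Leaving out 1 array gave 32 to 1781 genes (32 to 49 without WT 1, 2, 3 or 4, and 1781 without KLF15-null 8) and 0 to 1 members. The 1 member, Cth, passed with a pseudocount of 64, with no filter, with no filter without KLF15-null 8, and without KLF15-null 5 or 7. It was below the filter and not tested in the other settings. Where a filter was used, Cth entered the test through its WT arrays, so those passes add no support. For the interaction, 172 genes became 92 with a pseudocount of 1, 290 with 64 (0 members), 344 with quantile normalization, 278 with no scaling and 930 with quantile normalization without KLF15-null 8, also chosen after seeing the data. Leaving out 1 array gave 120 to 1657 genes and always 1 member. Between the tissues, 6145 genes in KLF15-null and 6219 in WT mice passed, against 10179 and 10192 when every probe set was its own feature. Leaving out 1 array gave 5865 to 6256 and 5901 to 6607. Ahcy, Cdo1 and Csad passed each time. Mat1a, Bhmt, Gnmt, Cbs and Cth passed too, but a difference was built into their tests, so their passes add no support.

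Signs turned only for differences that did not pass: Bhmt in liver to 0.0049 with quantile normalization, and in the interaction Gnmt to -0.0033 with a pseudocount of 64, Bhmt to 0.0062 with quantile normalization and 0.062 without KLF15-null quadriceps 6 (-0.30 to 0.062 when leaving out 1 array), Ahcy to 0.29 with no scaling, 0.02 without KLF15-null quadriceps 7 and 0.13 without KLF15-null quadriceps 8 (-0.26 to 0.13 when leaving out 1 array), and Cdo1 to 0.15 with no scaling. The causes were not tested. Of the single-gene values, 2039 kept direction and side of the threshold, 30 lost their call, 26 gained one and 8 reversed.

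The values did not show a pairing of the samples by replicate number. The 8 correlations of same-numbered samples lay between -0.098 and 0.0507 over 7014 genes, none over 0.1. Of the 8 samples, 2 correlated best with their own number. Liver and quadriceps of 1 mouse need not vary together, so these values cannot tell whether the samples are paired. With the replicate number as a block, 136 genes and 1 member passed in the interaction. Between the tissues 6031 genes passed in KLF15-null and 6104 in WT mice, among them Ahcy, Cdo1 and Csad in both genotypes. Dim signal in quadriceps limits Mat1a, Bhmt, Gnmt and Cbs there.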
